A study of Mus musculus with 9 samples.

Results

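Corneas of Aire knockout mice treated with PBS were compared with corneas of untreated wild-type mice, by RNA sequencing of whole corneas. The comparison used 7 of the 9 libraries in the count table. The tested group was 4 libraries of Aire knockout cornea treated with PBS (KO+PBS), whose sample titles give 24 hr. The group it was set against was 3 libraries of untreated wild-type cornea (WT), whose titles give 5 wk. Another 2 libraries of untreated Aire knockout cornea (KO), also titled 5 wk, were used to say which genes differed in the disease without treatment. The series text places the corneas at day 7 of treatment and 6 wk of age, and the labels do not settle which age or time holds for each group. A 4th condition named there, Aire knockout treated with lacripep, was not analysed here. Neither the strain, the sex, nor whether a replicate was 1 mouse or a pool is given, so each p-value reflects only how much these libraries vary. No PBS-treated WT library and no untreated KO library prepared with the PBS set was analysed, so in KO+PBS against WT the effects of PBS, of genotype and of how the libraries were made and counted cannot be told apart.

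Genes were members if they had 10 or more counts in each of the 7 libraries and were not mitochondrial, ribosomal-protein, pseudogene or clone-named rows. Of 34165 rows, 12884 were members. Members were thus chosen by their counts in these libraries, and not by their difference between groups. At the edge of that rule, 124 genes had a lowest count of exactly 10 and 121 had a lowest count of 9. A further 376 genes reached the minimum in every KO+PBS library but not in every WT library, and 1192 did the reverse, so a gene silent in 1 group is not among the members. Values below are CPM, each gene's share of the counts in member genes scaled by edgeR's trimmed mean of M-values, and a gene is called higher or lower where its adjusted p is under 0.05 (edgeR quasi-likelihood test, Benjamini-Hochberg over all 12884 genes).

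The sides were counted differently. Mitochondrial genes took 0.796% to 6.12% of all counts in the KO+PBS libraries and were at 0 in every WT and KO library. Pseudogene and clone-named rows took 0.672% to 0.748% in KO+PBS, against 24.6% to 25.8% in WT, and ribosomal-protein genes took 3.92% to 5.60% in KO+PBS, against 14.3% to 15.7% in WT. Member genes held 86.9% to 94.3% of 22944576 to 27116073 counts in KO+PBS libraries and 66.0% to 67.9% of 38331620 to 104518572 counts in WT libraries. Of the member genes, 3434 were called higher in KO+PBS (26.7%) and 3225 lower (25%), 51.7% in all, and the values of 57.8% did not overlap between the groups. Past a fold of 2, tested as such, were 7.93% higher and 6.16% lower. With library totals alone in place of the scaling, the median log2 fold change was 0.46 in place of 0.06, and 74.2% of calls were higher in place of 51.6%. KO against WT, with both groups counted alike, gave 13.6% higher and 12.6% lower. KO+PBS replicate 2 stood apart, with the highest mitochondrial share and Spearman correlations of 0.885 to 0.913 with the other KO+PBS libraries, which had 0.956 to 0.974 among themselves. Leaving out KO+PBS replicate 1, 2, 3 or 4 gave 49.6%, 67.1%, 44.7% and 47.1% of member genes called. Leaving out WT replicate 1, 2 or 3 gave 39.8%, 37.85% and 40.7%. Of the 12884 member genes, these 3 fits called 2589, 2473 and 2661 higher, and 2544, 2403 and 2579 lower. These background shares are the scale against which each count of genes below is read, each in the fit that gave it.

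The differences also followed gene length. Member genes were split by length into 5 equal groups. In the shortest group (exons of 312 to 2586 bases in all), the median log2 fold change of KO+PBS over WT was -0.80 and 54.5% were called lower. In the longest group (7762 to 123179 bases), the median was 0.71 and 48.7% were called higher. For KO over WT, the same medians were -0.07 and 0.01. A second fit with this length trend removed, in which 22.7% of the members were called higher and 20.1% lower, is therefore given beside results whose call or direction it changed.

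**Figure D1:**
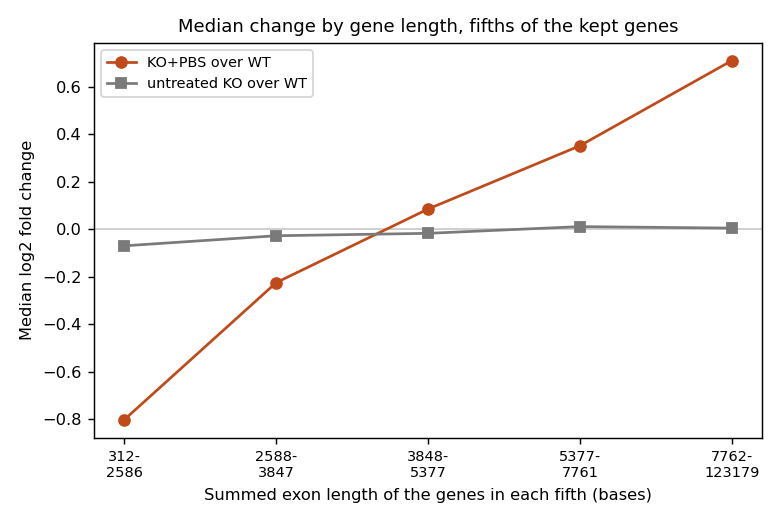
Median log2 fold change over WT for member genes in 5 equal groups by total exon length in bases, shortest to longest, for KO+PBS and for KO. The KO+PBS medians run from -0.80 in the shortest group to 0.71 in the longest, and the KO medians lie between -0.07 and 0.01.

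Aire is the transcriptional regulator by which the thymus presents tissue antigens to developing T cells, and mice that lack it develop autoimmune disease of several organs, including the tear glands and the ocular surface. The cornea is built of a stratified epithelium marked by keratin 12, a collagen stroma kept clear by keratocytes and their keratan sulfate proteoglycans, and an endothelium that pumps fluid out of the stroma across Descemet's membrane. Interferons from infiltrating lymphocytes and from stressed epithelium induce antiviral enzymes, guanylate-binding proteins and the machinery that presents antigen. In whole tissue, fewer cells of a type and less RNA per cell cannot be told apart. Aire itself had 7, 9, 7 and 2 counts in KO+PBS, 0 and 3 in KO, and 4, 16 and 3 in WT, too few to check the genotype.

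Type I interferon genes were mostly higher in KO+PBS. All 34 listed genes were members, and 27 were called higher in KO+PBS, 1 lower and 6 neither, with a median log2 fold change of 2.14 against 0.06 over all genes. In KO over WT, a comparison that uses the same WT libraries, 31 were higher, none lower, and the median was 2.52. The summed level of the list was 10100, 3015, 10730 and 8115 CPM in KO+PBS, against 2669, 2174 and 1379 CPM in WT, so replicate 2 was the lowest treated library and still above every WT library. The monocyte and macrophage, T cell and cytotoxic markers measured beside these genes are given further on, and their part in the result was not tested.

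Oas2, an oligoadenylate synthetase that senses double-stranded RNA (chromosome 5, 120730333 to 120749853, minus strand, GRCm38), had 542, 211, 546 and 340 CPM in KO+PBS, 620 and 463 CPM in KO, and 35.03, 47.8 and 14.1 CPM in WT. The KO+PBS and WT libraries did not overlap, and the fold was 12.7 (log2 3.66 ± 0.54 SE, adjusted p = 0.00122, edgeR quasi-likelihood test). Its neighbour Oas3 had 368, 93.3, 338 and 228 CPM in KO+PBS, against 30.3, 32.05 and 14.9 CPM in WT. Irf7, the factor that amplifies interferon transcription, averaged 601 ± 184 CPM in KO+PBS and 179.5 ± 55.3 CPM in WT (SD, n = 4 and 3). That was 3.35-fold higher (log2 1.74 ± 0.34, adjusted p = 0.00442, edgeR), and Irf7 shares exon bases with Phrf1 in the annotation.

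Ifi27l2a, a short interferon-induced mitochondrial protein, had 730, 380, 1002 and 754 CPM in KO+PBS, 1313 and 1615 CPM in KO, and 115, 60.0 and 17.4 CPM in WT. Its log2 fold change over WT was 3.48 ± 0.67 in KO+PBS (adjusted p = 0.00402, edgeR), and 5.64 with the length trend removed. Ifit2, which binds viral RNA and blocks its translation, had 53.8, 29.03, 57.8 and 54.6 CPM in KO+PBS, against 10.8, 6.46 and 6.16 CPM in WT. Here the treated and untreated disease groups differed in what they showed against the same WT libraries: log2 2.65 ± 0.32 in KO+PBS (adjusted p = 0.000508) and 0.13 in KO (adjusted p = 0.792, both edgeR). The difference between those 2 effects was not tested. Mx2, an antiviral dynamin-like GTPase, had 58.9, 20.4, 49.8 and 36.98 CPM in KO+PBS, against 6.38, 2.26 and 1.67 CPM in WT (log2 3.62 ± 0.60, adjusted p = 0.00196, edgeR).

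The members that were not called higher were Oas1a, Bst2, Oasl1, Oas1g, Ifitm3 and Isg20, and Ifi35 was called lower. Oas1a had a log2 fold change of 1.29 (adjusted p = 0.0545, edgeR) and Ifitm3, which blocks viral entry at membranes, had -0.25. Once the length trend was removed, 30 of the 34 were higher and none lower. In that fit Ifitm3 turned to 1.52 and was called higher (adjusted p = 0.0161), as were Oas1a (log2 2.11), Bst2 (log2 2.77) and Oasl1 (log2 1.62, adjusted p = 0.0482, edgeR). Isg20 turned from a log2 fold change of -0.66 to 0.11 without a call, and Ifi35 moved from -1.005 to -0.11 and lost its call. Xaf1 was not called in that fit (log2 1.13, adjusted p = 0.0654, edgeR). Oas1a and Oas1g are near-identical copies, so their split of counts is uncertain.

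Promoters are shown for 4 interferon-responsive genes that were called higher and hold the interferon-stimulated response motif, printed in capitals. The letters searched were GAAA, 2 bases of any kind and GAAA again, or TTTC in place of GAAA on the opposite strand. They come from RefSeq on GRCm38.p6 and run from 250 bases before to 50 after the start: Oas3 at chr5:120777610-120777909 (minus strand), Gbp7 at chr3:142530086-142530385 (plus), Erap1 at chr13:74639603-74639902 (plus) and B2m at chr2:122147437-122147736 (plus).
Oas3: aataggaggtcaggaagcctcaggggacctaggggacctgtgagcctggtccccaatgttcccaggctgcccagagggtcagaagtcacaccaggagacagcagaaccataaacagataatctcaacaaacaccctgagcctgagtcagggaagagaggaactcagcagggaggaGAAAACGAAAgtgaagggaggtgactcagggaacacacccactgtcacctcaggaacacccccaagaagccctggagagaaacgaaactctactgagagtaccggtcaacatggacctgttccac
Gbp7: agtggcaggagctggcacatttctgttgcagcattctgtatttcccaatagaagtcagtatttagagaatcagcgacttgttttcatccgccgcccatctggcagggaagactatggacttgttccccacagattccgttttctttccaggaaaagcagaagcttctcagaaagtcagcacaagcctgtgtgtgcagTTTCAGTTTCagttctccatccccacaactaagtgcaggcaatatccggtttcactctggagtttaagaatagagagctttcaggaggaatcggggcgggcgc
Erap1: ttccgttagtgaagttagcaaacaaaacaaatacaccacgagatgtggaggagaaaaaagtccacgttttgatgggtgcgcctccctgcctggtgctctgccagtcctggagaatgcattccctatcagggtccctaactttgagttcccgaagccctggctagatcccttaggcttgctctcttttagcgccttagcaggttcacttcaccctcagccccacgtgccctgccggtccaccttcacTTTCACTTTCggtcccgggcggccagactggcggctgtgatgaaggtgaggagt
B2m: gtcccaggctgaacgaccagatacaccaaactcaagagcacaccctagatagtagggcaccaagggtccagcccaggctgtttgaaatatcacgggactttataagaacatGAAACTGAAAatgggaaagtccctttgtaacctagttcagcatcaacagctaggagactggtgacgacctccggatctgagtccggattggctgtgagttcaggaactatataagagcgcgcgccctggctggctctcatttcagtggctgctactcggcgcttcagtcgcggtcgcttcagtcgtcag
The motif begins 75 bases before the start of Oas3, 53 before that of Gbp7, 4 before that of Erap1 and 139 before that of B2m. It was found in 3.44% of 32851 promoters of the same length. Of the measured list members with a promoter in the table, it was found in 14 of 24 type I interferon genes, in 10 of 14 interferon gamma genes and in 5 of 17 MHC class I genes. Within the type I list it was as frequent among genes called higher (10 of 17) as among the others (4 of 7). Within the interferon gamma list it was in 9 of 10 called higher and 1 of 4 others. The gamma-activated motif TTCNNNGAA, which reads the same on both strands, was in 8.30% of promoters, in 8 of the 14 interferon gamma genes and at 2 places in the Gbp7 promoter. A match describes these letters and is not evidence that a factor binds there.

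Most members of the interferon gamma list were higher in KO+PBS. Of 29 listed, 21 were members, and 15 were called higher in KO+PBS and none lower, with a median log2 fold change of 3.34. In KO over the same WT libraries all 21 were higher, with a median of 2.60. The summed level of the list was 2851, 704 , 2623 and 4218 CPM in KO+PBS, against 751, 709 and 638 CPM in WT. Replicate 2 thus lay within the WT range, and the other treated libraries lay above it. Guanylate-binding proteins and immunity-related GTPases, which attack vacuoles that hold pathogens, led the list. Several of these genes are close copies of each other, and Tgtp1 and Tgtp2 nearly identical ones, so counts within the family are uncertain.

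Gbp7 had 169, 29.4, 135 and 165 CPM in KO+PBS, 24.5 and 14.8 CPM in KO, and 4.92, 4.48 and 4.03 CPM in WT. All KO+PBS libraries were above WT, with replicate 2 far below the other 3, and the fold was 27.9 (log2 4.80 ± 0.64, adjusted p = 0.000757, edgeR). Iigp1, an immunity-related GTPase on chromosome 18, had 110, 45.0, 56.6 and 322 CPM in KO+PBS, 38.5 and 7.68 CPM in KO, and 3.37, 3.01 and 2.01 CPM in WT. Replicate 4 was the highest, and the fold over WT was 47.6 (log2 5.57 ± 0.86, adjusted p = 0.00147, edgeR). Gbp3 (log2 4.04 ± 0.61, adjusted p = 0.00131) and Gbp6 (log2 4.85 ± 0.76, adjusted p = 0.00153) rose too in the edgeR test. Gbp7 shares exon bases with Gm43802 in the annotation, and Gbp6 with Gm43302.

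Irf1, a transcription factor of the response, had a log2 fold change of -0.13 in KO+PBS and 1.28 in KO. Socs1, the feedback inhibitor of the same receptors, had 0.92 in KO+PBS and was not called, but was called higher with the length trend removed (log2 1.29, adjusted p = 0.0490, edgeR). The chemokine targets of interferon gamma were no members, since WT counts were too low, and are named here after their values were seen. Cxcl9, which draws T cells, had 48, 280, 162 and 4138 counts in KO+PBS, 413 and 341 in KO, and 5, 38 and 3 in WT. Cxcl10 had 44, 140, 105 and 940 counts in KO+PBS, 122 and 73 in KO, and 2, 18 and 2 in WT, where the deepest library was the one with 18. In both genes replicate 4 stood far above the other treated libraries and every treated library was above every WT library.

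**Figure D2:**
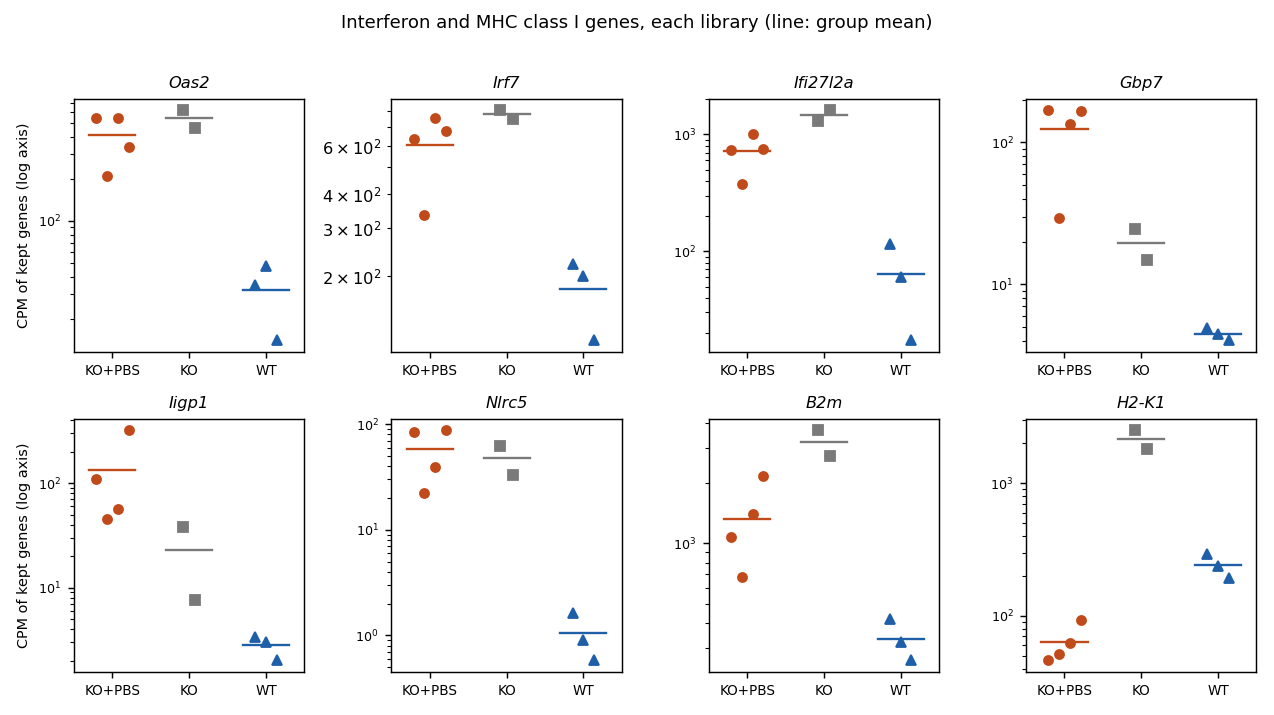
CPM on a log axis in each library of KO+PBS, KO and WT for 8 interferon and antigen presentation genes, with points for libraries and a line at the mean. Oas2, Irf7, Ifi27l2a, Gbp7, Iigp1, Nlrc5 and B2m are above WT in all 4 KO+PBS libraries, and H2-K1 is below WT in all 4.

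Antigen presentation by MHC class I was mixed in KO+PBS, where it had risen almost throughout in KO. Of 21 listed genes 20 were members, and 10 were called higher, 3 lower and 7 neither, with a median log2 fold change of 1.04. In KO over WT 19 were higher and none lower, with a median of 2.09. The summed level of the list was 4310, 2862, 4901 and 7536 CPM in KO+PBS, against 3381, 3221 and 2767 CPM in WT. Here too replicate 2 lay within the WT range. The count of 10 fell to 5 without WT replicate 1, 5 without WT replicate 2 and 4 without WT replicate 3. Those fits called 2589, 2473 and 2661 of all 12884 member genes higher. The class I heavy chains are near-identical copies, and their split of counts between libraries counted differently is uncertain.

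Nlrc5, the transactivator of class I genes (chromosome 8, 94434356 to 94527272, plus strand, GRCm38), had 85.2, 22.5, 39.6 and 87.6 CPM in KO+PBS, 62.2 and 32.8 CPM in KO, and 1.64, 0.910 and 0.581 CPM in WT. All treated libraries were above all WT libraries, by 57.2-fold (log2 5.84 ± 0.68, adjusted p = 0.000399, edgeR), and the log2 fold change was 5.54 in KO. Its exons share bases with 9330175E14Rik. B2m, the class I light chain (chromosome 2, 122147686 to 122153083, plus strand), had 1070, 680, 1391 and 2167 CPM in KO+PBS, 3662 and 2718 CPM in KO, and 417, 320 and 261 CPM in WT. It rose 3.99-fold in KO+PBS (log2 2.00 ± 0.41, adjusted p = 0.00517, edgeR), with the treated libraries between those of WT and KO, and its log2 fold change was 3.54 with the length trend removed.

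H2-D1, a classical heavy chain, had 1217, 994, 1446 and 2258 CPM in KO+PBS, against 740, 754 and 674 CPM in WT (log2 1.03 ± 0.29, adjusted p = 0.0194, edgeR). That call was lost without any 1 of the WT libraries (adjusted p of 0.0641, 0.0643 and 0.0746, edgeR). H2-K1, the other classical heavy chain, had 46.2, 52.0, 62.2 and 93.8 CPM in KO+PBS, 2507 and 1821 CPM in KO, and 290, 237 and 191 CPM in WT. It was thus called lower in KO+PBS (log2 -1.92 ± 0.27, adjusted p = 0.000956, edgeR) and higher in KO (log2 3.17), with no overlap between the 3 groups. H2-T22 and H2-T23 were also called lower in KO+PBS and higher in KO, and H2-Q4 was called higher in both. H2-T23 (log2 -1.18 in KO+PBS) lost its call with the length trend removed (log2 -0.80, adjusted p = 0.108, edgeR). Erap1, which trims peptides for class I, rose to 69.3, 33.4, 55.0 and 79.3 CPM in KO+PBS, against 24.1, 21.3 and 21.96 CPM in WT (log2 1.40 ± 0.28, adjusted p = 0.00501, edgeR). The inducible proteasome subunits Psmb8, Psmb9 and Psmb10 were not called in KO+PBS, with log2 fold changes of -0.76, 1.05 and -0.16, and were called higher in KO. Psmb10 turned to 0.74 with the length trend removed, without a call.

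None of the 8 MHC class II members was called in either direction in KO+PBS, at a median log2 fold change of 0.19, whereas 7 were higher in KO (median 1.57). At an unadjusted p under 0.05, 1 was lower, as in DESeq2, and 4 were called lower without KO+PBS replicate 4. The median was 1.03 with the length trend removed, none was called lower, and Ctss, the cathepsin that degrades the invariant chain, was called higher (log2 2.11, adjusted p = 0.0219, edgeR). Cd74, the class II invariant chain, had 74.3, 232, 153 and 989 CPM in KO+PBS, 638 and 476 CPM in KO, and 176, 173 and 147 CPM in WT. Replicate 4 alone exceeded KO, replicate 1 lay below every WT library, and the difference did not pass (log2 1.13 ± 0.82, adjusted p = 0.283, edgeR). H2-Aa had a log2 fold change of -2.09 (adjusted p = 0.0597) and was called lower without KO+PBS replicate 4 (log2 -3.32, adjusted p = 0.00163, edgeR).

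Few T cell and cytotoxic markers reached the minimum of 10 counts in every library. Some, such as Cd3e, Cd8a and Il2rb, fell short in WT alone, and others, such as Trbc2, in KO+PBS alone. Of 28 T cell genes 4 were members and none was called by edgeR (1 higher at an unadjusted p under 0.05, and 2 by DESeq2), and none of 9 cytotoxic genes was a member. Cd3e, the T cell receptor subunit, was no member, with 20, 46, 31 and 262 counts in KO+PBS, 50 and 79 in KO, and 1, 12 and 3 in WT. Other genes of the list outside the members are named after their values were seen. Cd8a had 14, 33, 41 and 198 counts in KO+PBS, against 0, 8 and 2 in WT. Il2rb had 27, 76, 54 and 460, against 0, 20 and 9. In each of these genes every treated library was above every WT library. Others overlapped, such as Trbc2 with 6, 31, 31 and 212 counts in KO+PBS, against 13, 62 and 23 in WT. Of 26 monocyte and macrophage members 2 were higher and 2 lower (median -0.26), and their summed level was 896, 1296, 1056 and 1995 CPM in KO+PBS, against 1931, 1869 and 1691 CPM in WT. The 2 lower became 8 without KO+PBS replicate 4 and none with the length trend removed (median 0.28). Mpeg1, a macrophage pore-forming protein, had 25.9, 23.6, 29.6 and 149 CPM in KO+PBS, against 13.6, 7.42 and 7.17 CPM in WT, and was called higher (log2 2.60 ± 0.78, adjusted p = 0.0260, edgeR). Without WT replicate 1, 2 or 3 it was not (adjusted p of 0.0528, 0.0956 and 0.0925). Cd68, a lysosomal macrophage marker, fell (log2 -1.51, adjusted p = 0.000855) but was at -0.34 and not called with the length trend removed.

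In the neutrophil list only 5 of 23 genes were members. Slfn4, an interferon-inducible Schlafen gene of myeloid cells, had 243, 53.5, 337 and 219 CPM in KO+PBS, 124 and 53.1 CPM in KO, and 6.20, 4.92 and 3.41 CPM in WT. It was the 1 called, at 44.1-fold higher (log2 5.46 ± 0.69, adjusted p = 0.000578, edgeR), and was also called in KO. Neutrophil list genes outside the members are named after their values were seen, as counts not scaled for the deeper WT libraries. S100a8 had 2, 2, 11 and 18 counts in KO+PBS, 365 and 291 in KO, and 78, 80 and 61 in WT. S100a9 had 3, 12, 5 and 77 in KO+PBS, 1902 and 672 in KO, and 259, 335 and 229 in WT. Irg1 went the other way, with 5, 18, 23 and 78 in KO+PBS, against 0, 0 and 1 in WT. Clec4e overlapped, with 0, 2, 5 and 71 in KO+PBS, against 0, 1 and 4 in WT. Tnfsf10, the death ligand TRAIL, had 62.8, 22.3, 66.1 and 72.7 CPM in KO+PBS, against 3.60, 4.92 and 4.76 CPM in WT, a 12.6-fold higher level (log2 3.65 ± 0.44, adjusted p = 0.000470, edgeR).

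The acute-phase response of the untreated knockout was not seen at its KO level. Saa3, a serum amyloid made at inflamed surfaces, had 0, 0.629, 0.214 and 4.73 CPM in KO+PBS, 1084 and 365 CPM in KO, and 0.137, 0.158 and 1.01 CPM in WT. The KO+PBS libraries overlapped WT, and every one was far below both KO libraries. Saa1 had 0.806, 0.0393, 0.606 and 0.430 CPM in KO+PBS, 41.2 and 12.9 CPM in KO, and 1.46, 0.945 and 1.05 CPM in WT, so all treated libraries lay below all WT libraries. Neither gene is a member. In a fit of all genes without the minimum, the log2 fold change over WT was 1.75 for Saa3 (adjusted p = 0.389) and -1.19 for Saa1 (adjusted p = 0.258, edgeR).

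Mmp13, the collagenase that cuts fibrillar collagen, held an intermediate position. It had 1.34, 2.32, 0.677 and 6.58 CPM in KO+PBS, 87.6 and 32.6 CPM in KO, and 0.137, 0.367 and 0.194 CPM in WT. It was above WT in all 4 treated libraries (log2 3.51 ± 0.90, adjusted p = 0.0147 in the edgeR fit without the minimum) and below KO in all 4.

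Of 22 listed acute-phase and antimicrobial genes 8 were members, and 4 were called lower in KO+PBS and none higher, with a median log2 fold change of -1.57. That count was 2 and the median -0.49 with the length trend removed. In KO 3 were higher and 1 lower (median 0.57). Pglyrp1, a peptidoglycan-binding protein, had 231, 453, 433 and 866 CPM in KO+PBS, 6136 and 4045 CPM in KO, and 1870, 2487 and 2632 CPM in WT. It was called lower in KO+PBS (log2 -2.23 ± 0.41, adjusted p = 0.00335, and -1.45 with the length trend removed) and higher in KO (log2 1.12, adjusted p = 0.0120, edgeR). Lcn2, the siderophore-binding lipocalin, had 3.49, 13.2, 3.85 and 9.89 CPM in KO+PBS, 82.0 and 35.6 CPM in KO, and 22.1, 16.2 and 9.45 CPM in WT, and was not called (log2 -1.06, adjusted p = 0.130, edgeR). It was called lower without KO+PBS replicate 2 (log2 -1.45, adjusted p = 0.0348). Of 15 complement members 5 were called lower and 1 higher in KO+PBS (median -1.02), with 9 lower without KO+PBS replicate 4 and 3 without WT replicate 3. There were 4 lower and none higher with the length trend removed (median -0.37). The 5 lower included C4a (log2 -2.57 ± 0.47, adjusted p = 0.00312) and Serping1, the C1 inhibitor (log2 -2.00 ± 0.45, adjusted p = 0.00822, both edgeR).

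Krt16, a keratin of stressed and hyperproliferative epithelium, had 25.2, 138, 35.7 and 129 CPM in KO+PBS, 6383 and 669 CPM in KO, and 34.8, 53.9 and 41.3 CPM in WT. Replicates 2 and 4 lay above every WT library, replicates 1 and 3 did not, and the difference was not called (log2 0.92 ± 0.62, adjusted p = 0.247), where the KO log2 fold change was 6.34. With the length trend removed it was called (log2 1.83, adjusted p = 0.0391, edgeR). Krt14, the basal keratin, had a log2 fold change of 0.08 ± 0.25 in KO+PBS (adjusted p = 0.801) and 2.33 in KO, and was called higher with the length trend removed (log2 0.92, adjusted p = 0.0147, edgeR).

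Il1b, the inflammasome cytokine, had 1.07, 3.30, 1.82 and 6.06 CPM in KO+PBS, 31.8 and 8.87 CPM in KO, and 1.59, 1.24 and 1.70 CPM in WT. The groups overlapped (log2 1.02 ± 0.59, adjusted p = 0.182), and it was called with the length trend removed (log2 1.76, adjusted p = 0.0404, edgeR). Sprr1a, a cornified envelope precursor, did pass, with 22.6, 204.5, 20.2 and 139 CPM in KO+PBS, 306 and 97.3 CPM in KO, and 12.3, 14.6 and 9.03 CPM in WT (log2 3.01 ± 0.91, adjusted p = 0.0267, edgeR). That call was lost without KO+PBS replicate 4 (adjusted p = 0.0565) and without WT replicate 1, 2 or 3 (adjusted p of 0.0834, 0.0775 and 0.0938). Of 16 stress and cornified epithelium members, Sprr1a alone was higher and 2 were lower (Lce3a and Lce3f, short late cornified envelope genes), at a median of -0.31, while 8 were higher and 1 lower in KO (median 0.71). With the length trend removed 5 were higher and 2 lower (median 0.44), and Lce3a lost its call (log2 -0.56, adjusted p = 0.304, edgeR).

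**Figure D3:**
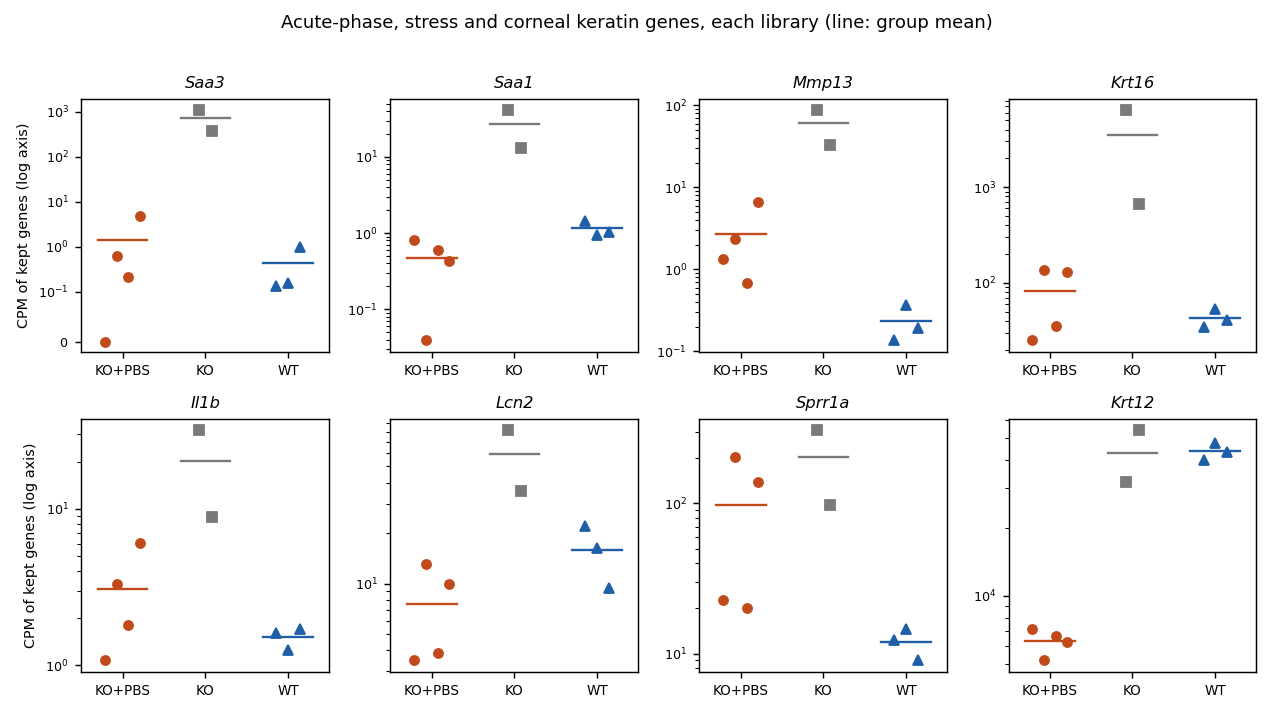
CPM on a log axis (linear below 0.1 for Saa3) in each library of KO+PBS, KO and WT for 8 acute-phase, stress and epithelial genes, with points for libraries and a line at the mean. Saa3, Saa1 and Krt16 are far below KO in all 4 KO+PBS libraries, Mmp13 lies between KO and WT, and Krt12 is low in KO+PBS alone.

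Epithelial identity genes were called at about the background share in both directions. Of 23 members, 6 were called higher and 6 lower in KO+PBS (median 0.08). That was 52.2% in all, against 51.7% of all member genes (median 0.06). In KO, 9 were higher and 1 lower. The 6 lower became 3 without any 1 of the WT libraries, and also 3 with the length trend removed (median 0.64). Krt12, the keratin that defines corneal epithelium (chromosome 11, 99415666 to 99422259, minus strand, GRCm38), had 7108, 5186, 6665 and 6262 CPM in KO+PBS, 31680 and 53890 CPM in KO, and 39920, 47390 and 42980 CPM in WT. It was 6.89-fold lower in KO+PBS (log2 -2.78 ± 0.19, adjusted p = 5.12e-05, edgeR), with no overlap, and unlike KO, where the log2 fold change was -0.03. With the length trend removed it was -1.97. Krt12 shares exon bases with the antisense gene A830036E02Rik, and without strand-aware counting the reads of both cannot be told apart. Relative to Krt5, the basal keratin, Krt12 stood at 0.219, 0.348, 0.233 and 0.228 in KO+PBS, 1.18 and 1.36 in KO, and 1.38, 1.38 and 1.49 in WT, a ratio chosen after its values were seen.

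Slurp1, a secreted Ly6-domain protein of corneal epithelium, had 1148, 1063, 1097 and 933 CPM in KO+PBS, 934 and 4300 CPM in KO, and 4497, 4809 and 3877 CPM in WT. It fell in KO+PBS (log2 -2.05 ± 0.16, adjusted p = 7.21e-05, edgeR), while the 2 KO libraries disagreed with each other (log2 -0.76, adjusted p = 0.402, edgeR). Aldh3a1, the corneal crystallin enzyme, was lower in KO+PBS (log2 -1.31 ± 0.27, adjusted p = 0.00500) and not called with the length trend removed (log2 -0.53, adjusted p = 0.217, edgeR). Pax6, the eye master regulator, rose to 736, 598, 625 and 426 CPM in KO+PBS, against 187 and 160 CPM in KO and 232, 205 and 249 CPM in WT (log2 1.38 ± 0.21, adjusted p = 0.00122, and 0.69 with the length trend removed, edgeR).

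Of 26 junction and hemidesmosome members 9 were higher and 4 lower in KO+PBS (median 0.40), and 15 were higher and none lower in KO. Tjp1, the tight junction scaffold, and Cldn1, a barrier claudin, had log2 fold changes of 2.62 and 2.20 in KO+PBS and were called higher. Dsg1b, a desmosomal cadherin, had 173, 33.98, 116 and 142 CPM in KO+PBS, against 14.6, 14.2 and 17.6 CPM in WT (log2 2.91 ± 0.53, adjusted p = 0.00299, edgeR). Itga6, an integrin chain of the hemidesmosome, was called higher in both KO+PBS and KO. Its call in KO+PBS (log2 1.25) was lost with the length trend removed (log2 0.70, adjusted p = 0.0637, edgeR). The count of 9 higher became 15 without KO+PBS replicate 2 and 6 with the length trend removed. Of 12 mucin and water transport members 5 were lower and none higher (3 lower without KO+PBS replicate 3, WT replicate 1 or WT replicate 2), among them Muc1, a membrane mucin, and Lgals3, the galectin that crosslinks the glycocalyx (log2 -1.35 and -1.50), both of which were called higher in KO. In the fit with the length trend removed 2 of the 12 were lower and 1 higher, and Muc1 and Lgals3 had -0.78 and -0.69.

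Some stromal genes were lower in KO+PBS, with a wide spread between the treated libraries. Of 22 keratocyte proteoglycan and keratan sulfate members 8 were called lower and 1 higher in KO+PBS (median -1.09), and 13 were lower and 1 higher in KO (median -0.95). The count of 8 became 15 without KO+PBS replicate 2, a fit in which 67.1% of all member genes were called. It was again 8, at a median of -0.51, with the length trend removed. Kera, the keratan sulfate proteoglycan keratocan (chromosome 10, 97606879 to 97613692, plus strand, GRCm38), had 47.9, 256, 74.5 and 208 CPM in KO+PBS, 34.3 and 32.5 CPM in KO, and 718, 626 and 719 CPM in WT. It was 4.69-fold lower in KO+PBS (log2 -2.23 ± 0.56, adjusted p = 0.0125), and the KO log2 fold change was -4.37. No treated library reached the WT range, and all were above both KO libraries.

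Lum, the related proteoglycan lumican, had 56.6, 318, 96.2 and 254 CPM in KO+PBS, 30.5 and 20.3 CPM in KO, and 329, 286 and 374 CPM in WT. Replicate 2 fell within the WT range, and the difference did not pass (log2 -0.86 ± 0.55, adjusted p = 0.228, edgeR), where the KO log2 fold change was -3.71. Dcn, decorin, had 198, 1182, 397 and 878 CPM in KO+PBS, 128 and 105 CPM in KO, and 1790, 1632 and 1917 CPM in WT. Every treated library was below WT and the test missed the threshold (log2 -1.42 ± 0.55, adjusted p = 0.0624, edgeR), which it passed without KO+PBS replicate 2 (log2 -1.84, adjusted p = 0.0174) and with the length trend removed (log2 -1.66, adjusted p = 0.0423). Chst5, the sulfotransferase for keratan sulfate, had 71.0, 126, 33.2 and 41.8 CPM in KO+PBS, 8.94 and 7.19 CPM in KO, and 103, 112 and 116.5 CPM in WT (log2 -0.70, adjusted p = 0.211). Without KO+PBS replicate 2 it was called lower (log2 -1.15, adjusted p = 0.0110, edgeR).

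Aldh1a1, a corneal crystallin enzyme, was the most even of these, with 111, 153.5, 101 and 98.5 CPM in KO+PBS, 35.1 and 68.0 CPM in KO, and 338, 368 and 290 CPM in WT (log2 -1.52 ± 0.19, adjusted p = 0.000529, edgeR). Bgn and Fmod, small proteoglycans that bind collagen, and Angptl7, a secreted stromal factor, had log2 fold changes of -2.56, -2.52 and -2.42 in KO+PBS and -0.66, -0.66 and -2.70 in KO. Relative to Lum, Kera stood at 0.847, 0.803, 0.774 and 0.822 in KO+PBS, 1.13 and 1.60 in KO, and 2.19, 2.19 and 1.92 in WT. This ratio, chosen after its values were seen, varied little among the treated libraries although Kera itself differed several-fold between them.

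**Figure D4:**
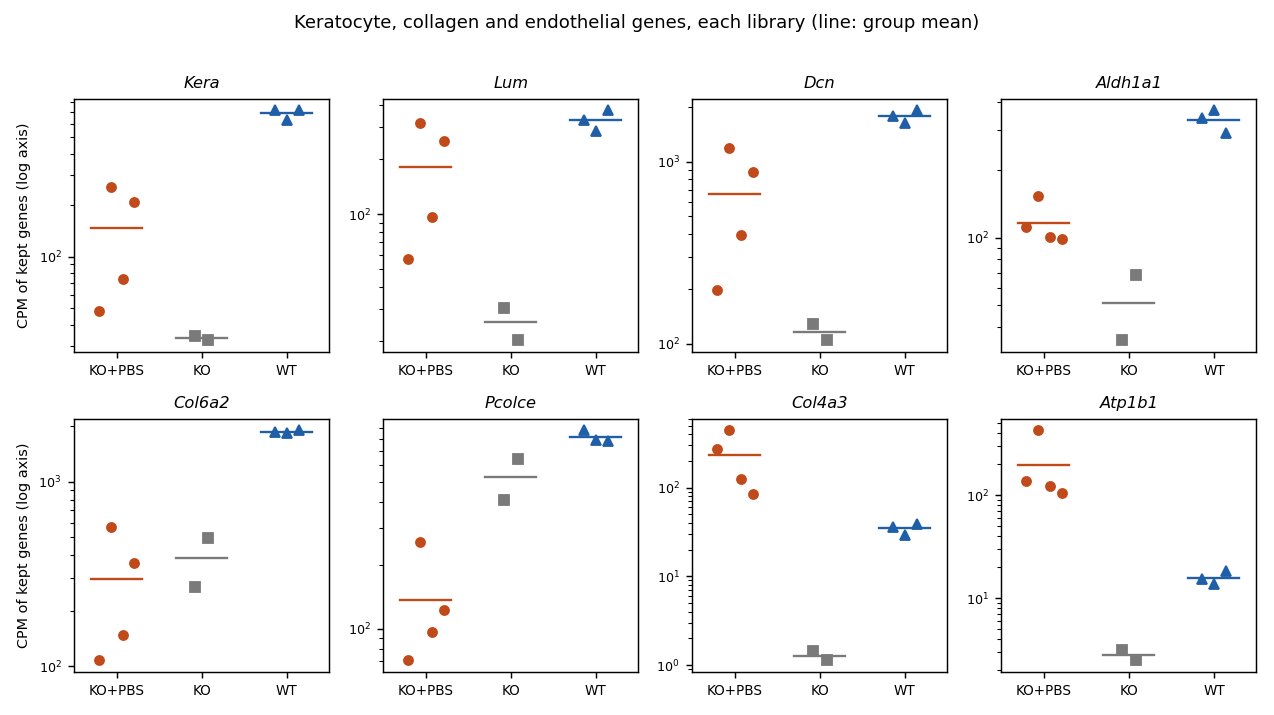
CPM on a log axis in each library of KO+PBS, KO and WT for 6 stromal genes and for Col4a3 and Atp1b1, with points for libraries and a line at the mean. KO+PBS replicates 2 and 4 are the highest treated libraries for Kera, Lum, Dcn, Col6a2 and Pcolce, and Col4a3 and Atp1b1 are above WT in all 4 KO+PBS libraries and below WT in both KO libraries.

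Fibrillar and beaded-filament collagens were lower. Of 24 stromal collagen members 14 were called lower and 1 higher in KO+PBS (median -1.39), and 19 were lower and none higher in KO (median -1.15). Their summed level was 2369, 10640, 2903 and 6034 CPM in KO+PBS, 5677 and 7108 CPM in KO, and 20450, 19820 and 21550 CPM in WT, with all treated libraries below WT. The count of 14 fell to 7 without KO+PBS replicate 3, 9 without KO+PBS replicate 4, and 6, 6 and 5 without WT replicates 1, 2 and 3. The fits without a WT library called 2544, 2403 and 2579 of all 12884 member genes lower. With library totals alone the count of stromal collagen members called lower was 5, and with the length trend removed it was 15.

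Col6a2, a type VI collagen chain, had 108, 571, 148 and 363 CPM in KO+PBS, 270 and 497 CPM in KO, and 1850, 1845 and 1899 CPM in WT, 6.27-fold lower in KO+PBS (log2 -2.65 ± 0.56, adjusted p = 0.00590, edgeR). Pcolce, which promotes the cutting of procollagen, had 70.6, 259, 96.3 and 123 CPM in KO+PBS, 407 and 642 CPM in KO, and 879, 789 and 782 CPM in WT. It fell further below WT in KO+PBS (log2 -2.57 ± 0.43, adjusted p = 0.00202) than in KO (log2 -0.65), without a test of that difference. Plod1, a collagen lysyl hydroxylase, and Serpinh1, the collagen chaperone, were called lower in both (log2 -2.18 and -1.86 in KO+PBS). Plod2, another lysyl hydroxylase, was the 1 member called higher (log2 1.41, adjusted p = 0.0486), a call lost without KO+PBS replicate 4, without any 1 of the WT libraries, and with the length trend removed (log2 1.21, adjusted p = 0.0733, edgeR). Sparc, a collagen-binding matricellular protein, had 396, 1726, 619 and 1082 CPM in KO+PBS, 2621 and 2620 CPM in KO, and 4908, 4795 and 5330 CPM in WT (log2 -2.39 ± 0.47, adjusted p = 0.00440, edgeR). Of 26 myofibroblast and scar members 6 were lower and 3 higher, smaller shares than the 25% and 26.7% of all member genes. There were 15 lower without KO+PBS replicate 2 and 3 lower without any 1 of the WT libraries. Acta2, smooth muscle actin, was not called (log2 0.37).

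Some endothelial and Descemet's membrane genes were higher in KO+PBS, where most of the list was lower in KO. Of 20 corneal endothelium members 8 were called higher and 1 lower in KO+PBS (median 0.75), whereas 2 were higher and 12 lower in KO (median -1.41). Of all member genes, 26.7% were called higher. The count of 8 fell to 3 without any 1 of the WT libraries. Those fits called 2589, 2473 and 2661 of all 12884 member genes higher, a larger share than 3 of 20. With the length trend removed the count was 6 (median 0.58). In that fit Col8a1 and Col8a2, type VIII collagen chains, were not called (log2 0.73 and 0.74, adjusted p = 0.179 and 0.194, edgeR). Col4a3, a chain of the type IV collagen of Descemet's membrane (chromosome 1, 82586921 to 82722059, plus strand, GRCm38), had 272.5, 446, 125.5 and 84.6 CPM in KO+PBS, 1.42 and 1.13 CPM in KO, and 36.3, 29.03 and 39.4 CPM in WT. The 3 groups did not overlap, and KO+PBS was 6.65-fold above WT (log2 2.73 ± 0.59, adjusted p = 0.00657, edgeR), with -4.82 in KO. Its exons share bases with C430014B12Rik.

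The partner chains moved alike. Col4a4 had a log2 fold change of 2.17 ± 0.56 in KO+PBS (adjusted p = 0.0141) and -3.99 in KO, and missed the threshold without WT replicate 1 or 2 (adjusted p of 0.0509 and 0.0592). Col4a5 had 3.00 ± 0.46 in KO+PBS (adjusted p = 0.00135, edgeR) and -2.08 in KO. Atp1b1, the beta subunit of the sodium pump (chromosome 1, 164437109 to 164458355, minus strand, GRCm38), had 136, 425, 122 and 104 CPM in KO+PBS, 3.12 and 2.49 CPM in KO, and 15.3, 13.6 and 18.4 CPM in WT. It was 12.5-fold above WT in KO+PBS (log2 3.64 ± 0.58, adjusted p = 0.00171, edgeR) and shares exon bases with Nme7.

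Other endothelial genes that had been low in KO lay near WT. Slc4a11, the ammonia and water transporter of corneal endothelium, had 225, 621, 144 and 142 CPM in KO+PBS, 27.4 and 28.6 CPM in KO, and 200.5, 193 and 200.2 CPM in WT (log2 0.52 ± 0.53, adjusted p = 0.444, edgeR). Slc14a1, a urea transporter, had 82.9, 236, 49.3 and 59.8 CPM in KO+PBS, 4.33 and 2.55 CPM in KO, and 82.6, 94.4 and 89.2 CPM in WT (log2 0.27 ± 0.53, adjusted p = 0.695). Dkk1, a secreted Wnt antagonist, had 7.34, 20.2, 5.56 and 3.91 CPM in KO+PBS, 0.203 and 0.261 CPM in KO, and 8.70, 7.58 and 6.86 CPM in WT (log2 0.26 ± 0.55, adjusted p = 0.711, edgeR). In each of the 3 genes the treated libraries lay on both sides of WT with replicate 2 the highest, and every treated library was above both KO libraries. These intervals are wide, and a test that misses the threshold does not show equal levels.

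Car3 and Car9, carbonic anhydrases, and Aqp1, a water channel of endothelium and keratocytes, were also not called, with log2 fold changes of -0.35, -0.07 and -0.73 in KO+PBS and -3.73, -4.04 and -2.23 in KO. Car3 and Car9 turned to 0.02 and 0.49 with the length trend removed, without a call. Without KO+PBS replicate 2 Aqp1 was called lower (log2 -1.29, adjusted p = 0.000172), and so was Car9 (log2 -0.60, adjusted p = 0.0114, edgeR). Lect1, an inhibitor of vessel growth, had 19.9, 37.1, 15.5 and 15.3 CPM in KO+PBS, 1.08 and 1.54 CPM in KO, and 39.1, 46.7 and 39.2 CPM in WT. Its call as lower (log2 -0.93 ± 0.32, adjusted p = 0.0435) was lost without KO+PBS replicate 1, 3 or 4 or any WT replicate (adjusted p between 0.0866 and 0.133) and with the length trend removed (log2 -0.14, edgeR). Cpa3, a mast cell protease, fell in KO+PBS (log2 -1.39, adjusted p = 0.00192) and not with the length trend removed (log2 -0.37). Serpinf1, pigment epithelium-derived factor, was 10.3-fold lower in KO+PBS (log2 -3.36 ± 0.54, adjusted p = 0.00177, edgeR), with 52.2, 284.5, 92.6 and 176 CPM in KO+PBS, 314 and 475 CPM in KO, and 1584, 1545 and 1529 CPM in WT.

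Timp3, a metalloprotease inhibitor bound to matrix, had 124, 557, 125 and 125 CPM in KO+PBS, 8.46 and 9.51 CPM in KO, and 19.04, 17.1 and 26.2 CPM in WT (log2 3.48 ± 0.69, adjusted p = 0.00441, edgeR). Mmp14, the membrane-bound metalloprotease, had 262, 285, 250.4 and 264.5 CPM in KO+PBS, 109 and 88.9 CPM in KO, and 57.2, 58.7 and 43 CPM in WT. All 4 treated libraries lay within a narrow range above KO and WT, 5.01-fold over WT (log2 2.33 ± 0.15, adjusted p = 4.26e-05, edgeR). Of 20 matrix protease and inhibitor members 7 were higher and 2 lower (median 0.79, and 0.12 with the length trend removed).

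**Figure D5:**
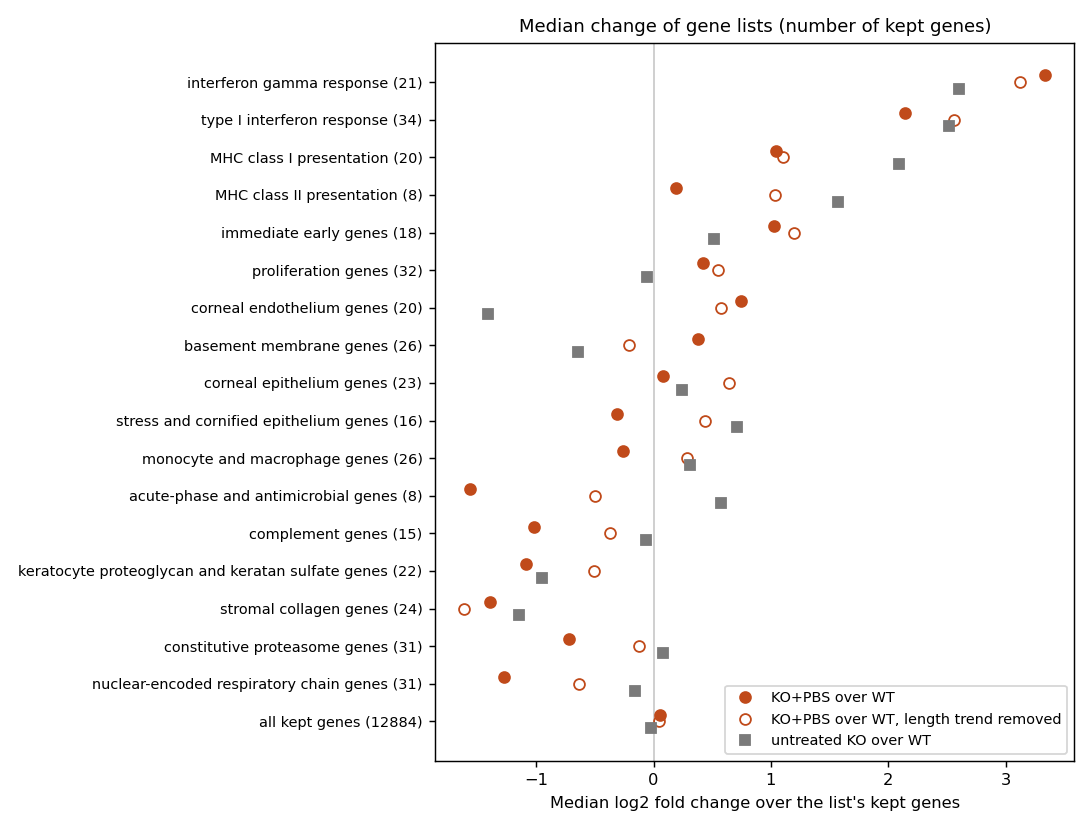
Median log2 fold change over WT of 18 gene lists, for KO+PBS (filled orange), KO+PBS with the length trend removed (open orange) and KO (grey squares), all against the same WT libraries. Interferon lists lie well above 0 in both conditions, stromal collagens below 0 in both, and corneal endothelium on opposite sides, at 0.75 in KO+PBS and -1.41 in KO.

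Proliferation and immediate early genes were higher in part, beside 26.7% of all member genes called higher. Of 32 proliferation members 12 were higher and 3 lower in KO+PBS (median 0.42), and none was higher and 1 lower in KO. The 12 became 19 without KO+PBS replicate 2 and 17 with the length trend removed. Mki67, the marker of cycling cells, had 125, 92.4, 102 and 90.3 CPM in KO+PBS, 79.1 and 30.1 CPM in KO, and 42.6, 49.8 and 57.5 CPM in WT (log2 1.04 ± 0.16, adjusted p = 0.00161, and 0.43 with the length trend removed, edgeR). The 3 called lower, Birc5, Cdk1 and Tyms, are also cell cycle genes. Of 18 immediate early members 9 were higher and 2 lower (median 1.02), and 6 were higher in KO (median 0.52). Jun, an AP-1 subunit, had 88.2, 103, 75.9 and 150 CPM in KO+PBS, 101 and 78.3 CPM in KO, and 32.6, 29.6 and 29.6 CPM in WT (log2 1.77 ± 0.24, adjusted p = 0.000822, edgeR). The count of 9 fell to 5 without KO+PBS replicate 1, 4 without replicate 4, 3 without WT replicate 1, and 2 without WT replicate 2 or 3. The fits without a WT library called 2589, 2473 and 2661 of all 12884 member genes higher, a larger share than that of the list. With the length trend removed 13 were higher and none lower. In KO+PBS replicate 2 the summed level of both lists lay below every WT library. It was 874.1 CPM for proliferation genes (WT 875.5, 1160 and 1086) and 1848 CPM for immediate early genes (WT 1985, 1950 and 1938). The other KO+PBS libraries lay above every WT library in both lists.

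All 8 genes with the largest increases share exon bases with another gene in the annotation. Among them, Zbed6, which shares exon bases with Zc3h11a, had 213, 172, 162 and 147 CPM in KO+PBS, 1.29 and 0.783 CPM in KO, and 0.729, 1.44 and 1.32 CPM in WT (log2 7.18 ± 0.30). Pcdhga12 (log2 7.44), Srcap, Sacm1l, Vcl, Pik3c2a and 4931406P16Rik were likewise low in both untreated groups, while Nlrc5, described above, was high in KO. Among the 8 largest decreases, Gstp2, Zbed5, Amd2, Dynlt1a, Dynlt1c and BC117090 were far lower in KO+PBS than in both untreated groups. Dynlt1a, for example, had 175, 148, 216 and 169 counts in KO+PBS, 7612 and 20281 in KO, and 9286, 26054 and 10630 in WT. Relative to WT, Zbed5 was lower in KO and BC117090 higher. Of these 6, Dynlt1a alone shares exon bases with other genes in the annotation. That overlap is by position, so reads that match similar genes elsewhere in the genome are not covered by it. Other genes named above also share exon bases, among them Erap1 with Cast, Timp3 with Syn3, Pcolce with Fbxo24 and Gm36266, and Slurp1 with Them6. The part of the counting of shared reads in these differences was not tested. Over the 7998 protein-coding members with no exon overlap, 49.8% were called.

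Nuclear-encoded respiratory chain genes were mostly lower in KO+PBS. Of 31 members 28 were called lower and 1 higher in KO+PBS (median -1.28), against 4 lower and 1 higher in KO (median -0.16), and 19 were lower with the length trend removed (median -0.63). Of 31 constitutive proteasome members 19 were lower and 2 higher in KO+PBS (median -0.72), against none lower and 5 higher in KO, and 11 were lower and 4 higher with the length trend removed (median -0.12). Ndufb8, a subunit of complex I, fell to 31.6, 36.3, 35.7 and 37.02 CPM in KO+PBS, against 141 and 181 CPM in KO and 192.5, 203 and 172 CPM in WT. Of 21 oxidative stress members 13 were lower and 3 higher (10 and 5 with the length trend removed), with Sod1, the cytosolic superoxide dismutase, at log2 -2.04 ± 0.18 (adjusted p = 0.000136, edgeR). Whether these falls belong to the treated corneas or to the libraries cannot be told apart.

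Neighbouring eye tissue differed between libraries. Of 16 lens members 7 were called higher in KO+PBS and none lower (median 2.52), and their summed level was 3279, 10470, 686 and 2861 CPM in KO+PBS, against 1464, 1226 and 675 CPM in WT. The 7 became 14 without KO+PBS replicate 3, 3 without replicate 1, 2 or 4, and 2, 1 and 1 without WT replicates 1, 2 and 3. Of the 16, 14 were higher with the length trend removed (median 3.43). Cryaa, the lens chaperone crystallin, had 887, 3268, 165 and 739 CPM in KO+PBS, against 149, 107 and 47.1 CPM in WT. Of 14 retina members none was called by edgeR (1 higher at an unadjusted p under 0.05, and 2 by DESeq2). Without KO+PBS replicate 1, 3 were called higher, and 2 without WT replicate 1. Lens, iris and ciliary body genes were highest in KO+PBS replicate 2, with a summed level of iris, ciliary body and pigment genes of 5137 CPM, against 225, 676 and 296 CPM in the other KO+PBS libraries and 1012, 404 and 259 CPM in WT. That is also the library with the highest summed stromal collagen and corneal endothelium levels among the treated ones, and the part of dissected neighbouring tissue in those levels was not tested. Without replicate 2, Col4a3 and Atp1b1 were still called higher (log2 2.24 and 2.97) and Kera, Col6a2 and Pcolce still called lower (log2 -2.63, -3.16 and -3.06), each with an adjusted p under 0.05 in edgeR.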

How the data were processed

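RNA was extracted with RNAaqueous and DNase reagents and made into libraries with a NEBNext Ultra kit, per the labels' protocols. The submitters' processing notes name fastp, STAR, featureCounts and the mm10 build, without versions or settings. The deposited table holds whole-number counts per gene, not normalized by the authors, for 9 libraries of 22944576 to 104518572 counts. Spreadsheet dates stood in place of 23 gene names. Annotation, strandedness and the treatment of shared reads: not given in the sources used here.

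Libraries of KO+PBS (4) and WT (3) were fitted with edgeR 4.0.16 (R 4.3.3; trimmed mean of M-values on member counts, robust quasi-likelihood, no covariate), and KO against WT in a separate fit of 5 libraries. SE is the log2 fold change over the root of F. Named genes were, per direction, the 8 largest called changes among genes whose groups did not overlap and averaged 5 CPM or more, up to 4 members per list by adjusted p, a list of disease genes, and markers of the dissected tissue; some genes under this rule are not reported here, and other genes named were chosen after their values were seen or illustrate a list. The 44 gene lists and the members were chosen with earlier results of these data known. Alternatives were other scalings and filters, DESeq2 1.42.0, a test against a fold of 2, a length trend fitted per library and removed through edgeR offsets, non-overlapping protein-coding genes, left-out libraries and a replicate block. Exon lengths, positions and overlaps came from GENCODE M21. The fits were tested on simulated counts. Same-numbered KO+PBS and WT libraries did not deviate together, so replicate numbers were not used as pairs.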

Additional observations from a re-analysis of the deposited data

Results flagged for a closer look

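In groups of 4, a library far from the other 3 is picked by its gap to the nearest one, which chance does in about 1 of 20 groups. Of 248 values tested, 18 were so picked. KO+PBS alone had 4 libraries, so no other group was tested. The values share these libraries and are not independent. Replicate 2 was the odd library in 13 of them. It was high for Pcdhga12 (207.5 CPM), Zbed5 (2.436 CPM), Timp3 (556.9 CPM), Soat1 (36.61 CPM), the summed Wnt antagonist and vessel inhibitor genes (2687 CPM) and the mitochondrial share (6.124%). It was low for Ifit2 (29.03 CPM), Gbp7 (29.35 CPM), Itgam (61.09 CPM), Tnfsf10 (22.28 CPM), Aldh3a1 (9159 CPM), Fos (28.64 CPM) and the summed proliferation genes (874.1 CPM). Replicate 1 was high for Srcap (197.6 CPM) and low for Ndufb5 (30.21 CPM), Elovl4 (2.059 CPM) and Lyve1 (0.6265 CPM). Replicate 4 was high for Mpeg1 (148.6 CPM).

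Mitochondrial genes lay outside the member genes. Their lowest share in KO+PBS was 0.7955% of counts, while every count of these genes was 0 in the WT and KO libraries.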

How the results depend on the processing

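Type I interferon members called higher numbered 27, and 16 in the test against a fold of 2, 15 in that test with the length trend removed, and 22 to 29 with 1 library left out. Interferon gamma members numbered 15, and 5 among protein-coding genes with no exon overlap (a smaller set), 9 past a fold of 2 with the length trend removed, and 11 to 18 with 1 library left out. MHC class I members numbered 10, and 1 past a fold of 2, 6 without overlapping genes, 4 past a fold of 2 with the length trend removed, and 4 to 11 with 1 library left out. Keratocyte members called lower numbered 8, and 4 past a fold of 2, 2 with the length trend also removed, and 7 to 15 with 1 library left out. Stromal collagen members called lower numbered 14, and 5 on library totals alone, 3 past a fold of 2, 4 with the length trend also removed, and 5 to 19 with 1 library left out. All genes called higher numbered 1022 past a fold of 2, 2009 without overlapping genes and 710 past a fold of 2 with the length trend removed. Genes called lower numbered 1756 on library totals alone, 794, 1886 and 375 under the same 3 settings in that order. For KO against WT, a fit of all 9 libraries gave 253 higher and 222 lower, and leaving out 1 library gave 853 to 2402 higher and 810 to 2503 lower. The causes were not tested.

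With the length trend removed, genes that changed sign and passed in 1 of the 2 fits included Il18 (0.3531), Ier3 (0.2181), Chmp2a (0.02129), Ndufa1 (0.07697) and Pdpn (0.4472), with the same values in the test past a fold of 2, and Ifitm3. With KO+PBS replicate 2 also left out, the first 5 had 0.5199, 0.356, 0.1487, 0.06957 and 0.4472. Epcam also changed sign, to 0.3813, and passed once replicate 2 was left out too (0.4663). Genes that passed in neither fit changed sign as well, among them Car3, Car9, Isg20 and Psmb10.

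Replicate numbers did not pair the samples: deviations of same-numbered KO+PBS and WT libraries correlated at -0.377, -0.147 and 0.005. A fit with the replicate block, which leaves out KO+PBS replicate 4, called 4777 genes, against 6659 without it, and 6 MHC class I members higher. DESeq2 called 7400. Genes silent in 1 group lay outside the members: 20 genes with enough counts in every KO+PBS library had 0 in every WT library, and 96 the reverse. The WT libraries were the deeper ones, and the part of the different counting in these values was not tested.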

Other observations

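Several genes outside the members had counts in 1 group and almost none in another, and are named after their values were seen. Sprr1b, a cornified envelope precursor, had 34, 898, 20 and 462 counts in KO+PBS, 798 and 205 counts in KO, and 0 in all 3 WT libraries. Fosl1, an AP-1 subunit, had 64, 82, 51 and 118 counts in KO+PBS and 0 in every KO and WT library. Tpsb2, a mast cell tryptase, had 74 counts in KO+PBS replicate 2 and 0 in the other KO+PBS libraries, 18 and 0 counts in KO, and 402, 1036 and 359 counts in WT. Muc5ac, the secreted mucin of goblet cells, had 14, 18, 8 and 3 counts in KO+PBS, 44 and 5 counts in KO, and 208, 1183 and 341 counts in WT.

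Of 18 limbal and progenitor members 6 were called higher and 4 lower in KO+PBS, near the 26.7% and 25% of all member genes. Bmi1, a Polycomb protein of stem cells, and Sox9, a progenitor factor, were higher (log2 2.22 and 1.72), and Gpha2, a marker of limbal stem cells, was lower (log2 -2.35, and -0.77 with the length trend removed); in KO these 3 had log2 fold changes of -0.18, -0.02 and 0.22. The 4 lower became 7 without KO+PBS replicate 2 and 2 without WT replicate 1, and also 2 with the length trend removed. Of 25 Schwann cell and nerve support members 2 were higher and 4 lower, smaller shares than the 26.7% and 25% of all member genes. There were 5 higher and 7 lower without KO+PBS replicate 2, 1 higher without any 1 of the WT libraries, and 1, 2 and 2 lower without WT replicates 1, 2 and 3. Vegfa, the vessel growth factor, was called higher in KO+PBS (log2 1.73) and had 0.26 in KO. None of 16 blood vessel members was called, where 3 were lower at an unadjusted p under 0.05 and 5 by DESeq2, and 9 were called lower without KO+PBS replicate 2 (edgeR quasi-likelihood test, Benjamini-Hochberg, in each count).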
